A study of Mus musculus with 2 samples.

Results

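The 8 genes described here write, remove or read DNA methylation: *Dnmt1*, *Dnmt3a*, *Dnmt3b*, *Uhrf1*, *Tet1*, *Tet2*, *Tet3* and *Mbd2*. They were picked by name from the 32285 genes counted in 2 single-cell RNA libraries. Each library held the dissociated cortex of 1 mouse embryo at embryonic day 16.5, and the embryos are called embryo 4 and embryo 5 after their labels. Both were wild-type (WT), taken as controls of the EomesMllt3 cross on the Eomes-Cre line, and the tissue label names the brain hemispheres. No mutant embryo was analysed here, so classes of cells were compared within these embryos, and n = 2 embryos throughout.

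DNA methylation in mammals sits mostly on cytosines that are followed by guanine. DNMT1 copies it onto the new DNA strand after replication and is brought there by UHRF1, which binds hemimethylated sites, while DNMT3A and DNMT3B can write it on unmethylated DNA. The TET enzymes oxidise methylated cytosine, a step towards its removal, and MBD2 binds methylated DNA and brings the NuRD chromatin complex. In the fetal cortex, radial glial cells (RGCs) divide at the ventricle and give rise to intermediate progenitor cells (IPCs) and excitatory neurons, whereas cortical interneurons migrate in from the ganglionic eminences after their last division.

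In the mm10 build, RefSeq places *Dnmt1* (ENSMUSG00000004099) at chr9:20907206-20959888, *Dnmt3a* (ENSMUSG00000020661) at chr12:3801559-3914443, *Dnmt3b* (ENSMUSG00000027478) at chr2:153649411-153687730 and *Uhrf1* (ENSMUSG00000001228) at chr17:56303337-56323486. *Tet1* (ENSMUSG00000047146) lies at chr10:62804570-62887469, *Tet2* (ENSMUSG00000040943) at chr3:133463677-133545136 and *Tet3* (ENSMUSG00000034832) at chr6:83362373-83457208. Long non-coding RNAs are annotated over *Dnmt3a* (*Dnmt3aos* and *Gm31623*), *Tet1* (*Gm51805*), *Tet3* (*B230319C09Rik*) and *Mbd2* (*Gm31671*), and the sources used here do not state whether the counting used strand. Their reads may therefore add to the counts of these 4 members. No annotated gene overlaps *Dnmt3b*, *Uhrf1* or *Tet2*.

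Of the maintenance pair, 1 of 3 annotated promoters of *Dnmt1* and 1 of 2 of *Uhrf1* hold an 8-base motif of the E2F factors, which switch on genes for DNA replication. The letters TTTCGCGC, TTTGGCGC, TTTCCCGC and TTTGCCGC were searched on both strands in RefSeq promoters (mm10) from 250 bases before to 50 bases after each gene start. These windows of 24 bases are shown because *Dnmt1* and *Uhrf1* are the members with the largest differences in the S gene split below; capitals mark the match, which for the first window is on the opposite strand.
*Dnmt1*, chr9:20952822-20952845, minus strand: cgcGCGCGAAAaagccggggtctc
*Dnmt1*, chr9:20952580-20952603, minus strand: gcgcggggcagcgTTTGGCGCggg
*Uhrf1*, chr17:56304125-56304148, plus strand: gggTTTCGCGCgcccaggcgtctc
A match was present in a promoter of 2 of the 7 members with an entry, in 6 of 13 S phase genes (*Mcm3*, *Mcm5*, *Mcm6*, *Mcm7*, *Cdc6* and *Clspn*) and in 2 of 26 other methylation genes (*Hells* and *Cdca7*). Of all 27025 genes with an entry, 2.6% held one in a promoter (2.26% of 32851 promoters). Each motif searched holds a CG pair, so promoters rich in CG can match more often. The matching promoters of *Dnmt1* and *Uhrf1* held 33 CG pairs each, against a median of 7 over all promoters. The share among promoters equally rich in CG was not counted. A match describes the letters in this window and was not tested as a binding site.

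Each sum of a class of cells in an embryo is given as CPM, the unique molecular identifiers (UMIs) of a gene per 1000000 UMIs of that class. After filtering, 9932 cells of embryo 4 and 10416 of embryo 5 were kept, with a median of 10034.5 and 8828 UMIs, and the libraries shared 46 barcodes, 26 of them kept. The members had from 347 UMIs (*Dnmt3b*, embryo 5) to 13468 UMIs (*Tet3*, embryo 4) in the kept cells of a library. Clusters were named from marker genes, with the members and the other genes of their pathway left out of the clustering. This gave 2414 and 2553 progenitors (RGC-like and IPC-like cells), 5629 and 6043 excitatory neurons and 1022 and 1056 interneurons of the medial (MGE) and caudal (CGE) ganglionic eminence. The 11 RGC markers summed to 7307 and 7155 CPM in RGC-like cells and to 268 and 211 CPM in excitatory neurons, and the 8 interneuron markers to 3454 and 3468 CPM in interneurons against 15.8 and 10.1 CPM in excitatory neurons. The 12 excitatory neuron markers summed to 8164 and 8259 CPM in excitatory neurons and 648 and 643 CPM in RGC-like cells. IPC-like cells lay between, at 3866 and 3751 CPM, so this class also carried neuronal RNA. Haemoglobin and other erythroid markers, which none of these classes makes, summed to between 201 and 593 CPM, which is read as a level of free RNA in each class. One GABAergic cluster of 124 and 187 cells matched no interneuron subclass and was kept apart as the unclassed GABAergic cluster.

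Differences were tested on the class sums with edgeR's quasi-likelihood test, adjusted over all genes tested, and a gene is called changed at an adjusted p under 0.05. All 8 members passed the filter on low counts in every comparison. Large shares of all genes were called, and the share of members called is read against them. Fewer cells do not lower a CPM, but a class with less RNA per cell can have a higher CPM of a gene at the same number of molecules: the median UMI count of embryo 4 was 5833 in interneurons against 10781 in excitatory neurons. Scaling the sums by cells in place of UMIs moved the median log2 difference of all genes to 0.78 for progenitors against interneurons, -0.64 for interneurons against excitatory neurons and 0.12 for progenitors against excitatory neurons.

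Against excitatory neurons, 4 members were higher in progenitors (*Uhrf1*, *Dnmt3a*, *Dnmt1* and *Tet1*) and 2 were lower (*Mbd2* and *Tet2*), where 66.8% of 17412 genes were called (33.5% higher and 33.3% lower). Their median log2 fold change was 0.42, against 0.01 over all genes. Against interneurons, 4 members were higher in progenitors (*Uhrf1*, *Dnmt3b*, *Dnmt1* and *Dnmt3a*) and 2 were lower (*Tet2* and *Tet3*, the latter turning to 0.27 per cell), where 63.2% of genes were called (32.9% higher and 30.3% lower, or 5729 and 5278 genes, against 10048 and 2267 per cell), with a median of 0.32 against 0.03. In interneurons against excitatory neurons all 8 members were called, 6 higher and 2 lower (*Dnmt3b* and *Mbd2*), where 37% of genes were called (16.4% higher and 20.6% lower, or 2848 and 3591 genes, against 1077 and 10103 per cell). For *Dnmt1*, *Tet1* and *Tet3* among the 6, the sign of this last difference turned when sums were scaled by cells (to -0.34, -0.39 and -0.20).

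**Figure D1:**
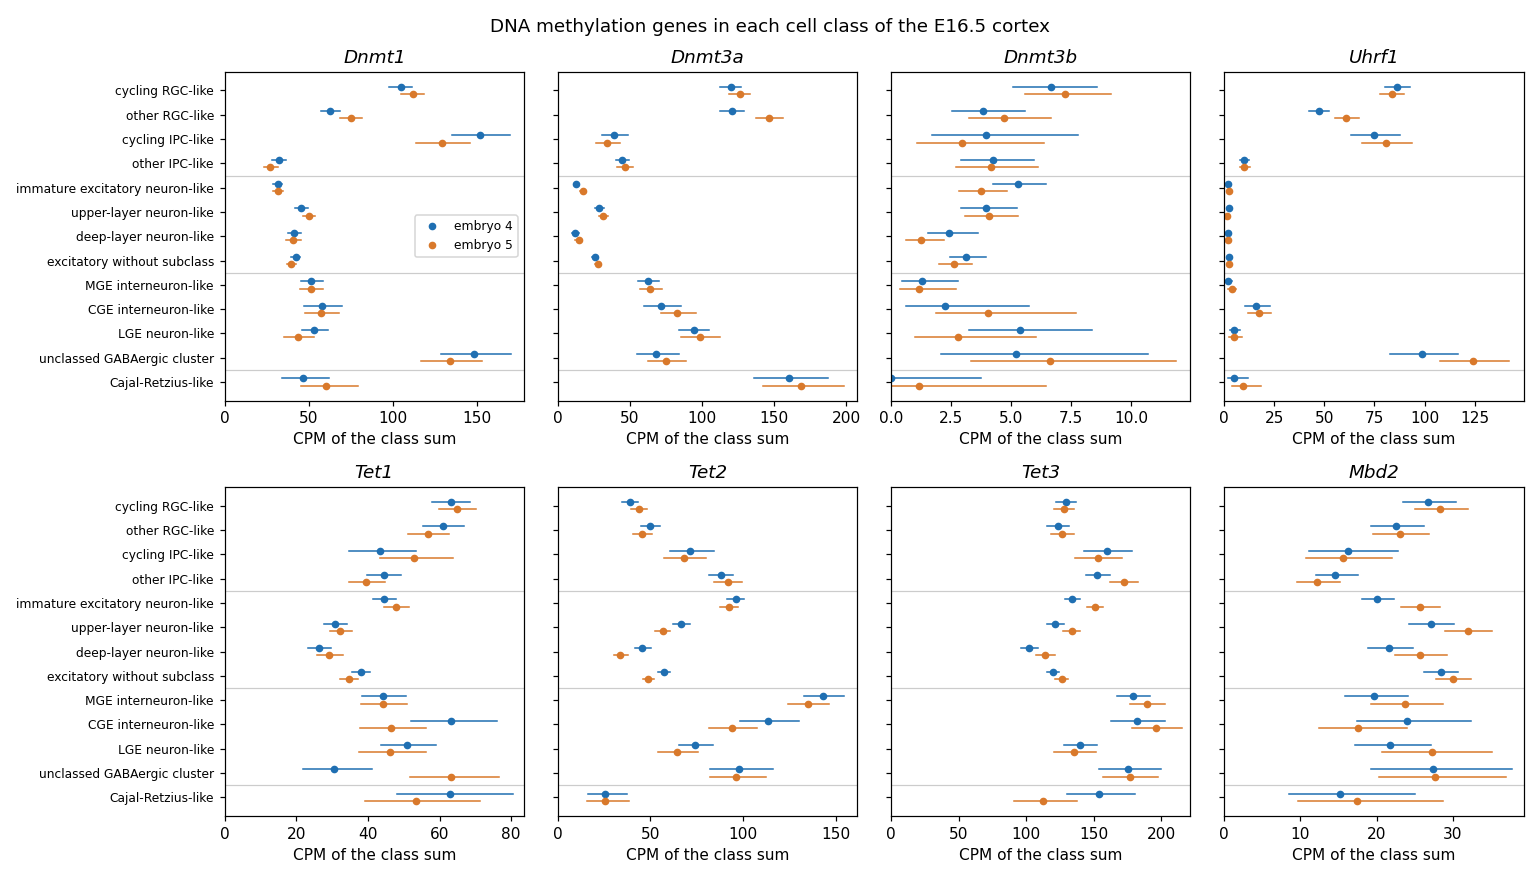
CPM of each member (x axis, own scale for each gene) in 13 classes of cells (y axis), 1 point per embryo with its 95% Poisson interval, which covers counting error only. *Uhrf1* is high in cycling RGC-like and IPC-like cells and in the unclassed GABAergic cluster and near 2 CPM in excitatory neurons, *Dnmt3a* is highest in RGC-like and Cajal-Retzius-like cells, and *Tet2* is highest in MGE interneurons.

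*Uhrf1*, the partner of DNMT1, separated progenitors from neurons more than any other member. It stood at 51.4 and 58.2 CPM in the progenitors of embryo 4 and embryo 5, at 2.15 and 2.04 CPM in excitatory neurons and at 5.73 and 8.22 CPM in interneurons. The 3 groups did not overlap, though each holds 2 values and the share of all genes doing likewise was not counted. Progenitors were 23.2-fold above excitatory neurons (log2 fold change 4.53, SE 0.13, adjusted p = 1.7e-08) and 7.55-fold above interneurons (2.92, SE 0.15, adjusted p = 6.1e-07). In excitatory neurons *Uhrf1* held 3.13% and 2.75% of its level in RGC-like cells, no more than the RGC markers did there (3.66% and 2.94%). Of these neurons, 5254 of 5629 and 5813 of 6043 lay below both the cycling and the S gene threshold defined below. The source of the *Uhrf1* counts in excitatory neurons was not tested. In interneurons *Uhrf1* held 8.34% and 11.1%, above the 6.06% and 5.36% of the RGC markers. That pooled level hides a split, with CGE cells at 15.7 and 17.1 CPM and MGE cells at 1.93 and 3.68 CPM. Interneurons were 3.07-fold above excitatory neurons (1.62, SE 0.20, adjusted p = 0.00036), a call lost with clusters at a resolution of 0.5 (0.32) and with at least 2000 genes per cell (0.49).

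*Dnmt1* itself was present in progenitors and neurons alike. It stood at 74.8 and 81.3 CPM in progenitors, 39.7 and 40.1 CPM in excitatory neurons and 53.3 CPM in the interneurons of both embryos. Excitatory neurons thus kept 46.3% and 41.7% of the level of RGC-like cells, far above the share of the RGC markers. Progenitors were 1.73-fold above excitatory neurons (0.79, SE 0.07, adjusted p = 1.4e-05) and 1.41-fold above interneurons (0.50, SE 0.08, adjusted p = 0.00058). The second difference was not called once the unclassed GABAergic cluster was counted with the interneurons (0.11, adjusted p = 0.24) and was -0.01 with IPC-like cells alone as progenitors.

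In the unclassed GABAergic cluster *Dnmt1* was at 148 and 134 CPM and *Uhrf1* at 98.7 and 124 CPM, and 76.6% and 82.9% of its cells passed the cycling threshold defined next, against 1.27% and 0.568% of the interneurons.

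Progenitors were then split at 3 UMIs of *Mki67* and *Top2a*, genes of dividing cells. This made 32.4% and 36% of progenitors cycling, while 132 and 122 cells lay just below the threshold at 2 UMIs and 89 and 73 cells at 3 UMIs. Cycling cells held more RNA, with a median of 14152 UMIs in embryo 4 against 9525 in the other progenitors. In this split, averaged over RGC-like and IPC-like cells, 2 members rose with cycling (*Uhrf1* and *Dnmt1*) and *Tet2* fell, where 36.9% of 14454 genes were called (17.7% higher and 19.2% lower, or 2552 and 2781 genes, against 7052 and 247 per cell), and the members' median was 0.21 against -0.08 over all genes.

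*Dnmt1* and *Uhrf1* were higher in cycling cells of both kinds of progenitor, and by more in IPC-like cells. In RGC-like cells *Dnmt1* was at 105 and 112 CPM in cycling cells and at 62.8 and 75 CPM in the others. In IPC-like cells it was at 152 and 129 CPM in cycling cells and at 32.1 and 27.2 CPM in the others. *Uhrf1* was at 86.3 and 83.7 CPM against 47.3 and 61 CPM in RGC-like cells, and at 74.9 and 80.7 CPM against 9.73 and 10.1 CPM in IPC-like cells. Cycling and other cells did not overlap for either gene in either kind, a description of 2 values a side that was not counted over all genes. Over both kinds, *Dnmt1* was 2.78-fold higher in cycling cells (1.48, SE 0.09, adjusted p = 5.3e-07) and *Uhrf1* 3.59-fold higher (1.85, SE 0.10, adjusted p = 2.1e-07).

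The cycling difference was larger in IPC-like than in RGC-like cells by 1.5 on the log2 scale for *Dnmt1* (SE 0.18, adjusted p = 0.0007) and by 2.24 for *Uhrf1* (SE 0.20, adjusted p = 0.00015). These were the only members called in the test of that difference, in which 7.59% of genes were called (4.68% higher and 2.91% lower). These were 676 and 421 genes, against 319 and 81 per cell, and 1097 in all, against 2045 with the embryo as a block. The S phase list behaved alike, with 14 of 15 genes higher, and both mitosis genes, which define the split, were higher too. Among the other cells *Mki67* stood at 9.6 and 10.3 CPM in IPC-like against 28.4 and 29.8 CPM in RGC-like cells. There *Top2a* stood at 12.3 and 9.77 against 27.1 and 28 CPM. S-gene-rich cells, defined below, were 176 and 118 of the 814 and 790 other IPC-like cells. They were 413 and 469 of the 817 and 845 other RGC-like cells. The other cells of the 2 kinds were thus not matched in cycle genes, and the part of this in the difference was not tested.

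**Figure D2:**
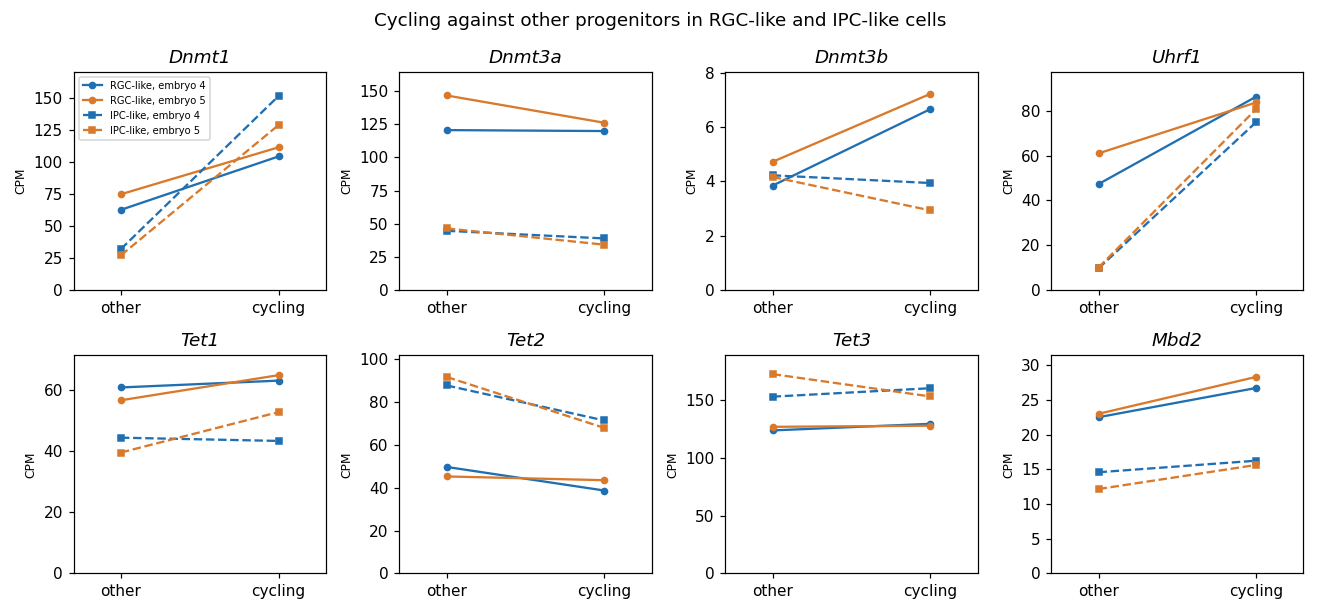
CPM of each member in the other and the cycling progenitors, with RGC-like cells as solid lines and circles, IPC-like cells as dashed lines and squares, and 1 line per embryo. *Dnmt1* and *Uhrf1* start lower in IPC-like cells and end near or above the RGC-like level, while *Dnmt3a* keeps its gap between the kinds of progenitor in both states.

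Without the cycling cells, the *Dnmt1* difference from neurons was no longer called. The other progenitors stood at 46.9 and 52.1 CPM, next to 39.7 and 40.1 CPM in excitatory neurons and 53.3 CPM in interneurons. The log2 fold change was 0.11 (SE 0.07, adjusted p = 0.21) against excitatory neurons, and -0.20 (SE 0.08, adjusted p = 0.053) against interneurons. The first value depended on the threshold, at -0.17 with a threshold of 1 UMI, and it was called at 6 UMIs (0.22, adjusted p = 0.024) and with each cell thinned to 3000 UMIs (0.31, adjusted p = 0.03). The second was called with the embryo as a block (-0.20, adjusted p = 0.027) and was 0.35 per cell. *Uhrf1* stayed 13.3-fold above excitatory neurons (3.74, SE 0.15, adjusted p = 2.6e-08) and 4.31-fold above interneurons (2.11, SE 0.19, adjusted p = 7.5e-06), though the latter was not called with the unclassed GABAergic cluster among the interneurons (0.21). Against excitatory neurons 3 members were higher and 1 lower in these progenitors, where 64.2% of genes were called (32.2% higher and 32% lower). Against interneurons 3 were higher and 3 lower, where 62.1% of genes were called (31.7% higher and 30.4% lower, or 5090 and 4891 genes, against 8097 and 2276 per cell).

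*Mki67* and *Top2a* mark the later part of the cell cycle, so the other progenitors were also split by 15 S phase genes, which act in DNA replication. At least 5 UMIs of these genes were found in 36.1% and 35.9% of the other progenitors, called S-gene-rich here. These cells held more RNA, with a median of 10895 and 9184 UMIs against 8864 and 7336.5 in the S-gene-poor rest. *Dnmt1* was at 78 and 90.8 CPM in S-gene-rich and at 24.1 and 24.2 CPM in S-gene-poor cells, 3.45-fold apart (1.79, SE 0.09, adjusted p = 8.1e-07). *Uhrf1* was at 57.4 and 80.9 CPM against 6.1 and 4.63 CPM, 12.6-fold apart (3.65, SE 0.20, adjusted p = 1.1e-06). Of the members, 3 were higher and 2 lower in S-gene-rich cells, where 30% of 15394 genes were called (15.7% higher and 14.3% lower, or 2421 and 2201 genes, against 4555 and 378 per cell).

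The 2 sides of this split also differed in kind: the RGC-like share was 70.1% and 79.9% in the S-gene-rich but 38.8% and 35.9% in the S-gene-poor cells. Within RGC-like cells alone, *Dnmt1* was at 86.1 and 101 CPM in S-gene-rich and at 27.8 and 30 CPM in S-gene-poor cells. Within IPC-like cells it was at 60.6 and 53.5 CPM against 22.1 and 21.4 CPM. *Uhrf1* likewise stood at 70.5 and 89.1 against 12.4 and 11.8 CPM in RGC-like cells and at 29.1 and 50 against 2.94 and 1.18 CPM in IPC-like cells. Both genes were thus higher in S-gene-rich cells of each kind in each embryo.

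Once both cycling and S-gene-rich cells were set aside, *Dnmt1* was lower in progenitors than in excitatory neurons. Of the progenitors left, 61.2% and 64.1% were IPC-like, the class that also carried excitatory neuron markers. S-gene-poor progenitors, at 24.1 and 24.2 CPM, lay 1.9-fold below excitatory neurons (-0.93, SE 0.09, adjusted p = 4.7e-06), and their RGC-like and IPC-like cells were each below the 39.7 and 40.1 CPM of excitatory neurons. *Uhrf1* remained 2.24-fold above (1.16, SE 0.26, adjusted p = 0.0025), a call lost with the S gene threshold at 3 UMIs (0.90, adjusted p = 0.057). Its RGC-like part, at 12.4 and 11.8 CPM, lay above the neuronal 2.15 and 2.04 CPM, which its IPC-like part, at 2.94 and 1.18 CPM, overlapped. In this comparison 2 members were higher and 2 lower, where 58.9% of genes were called (28.5% higher and 30.5% lower, or 4383 and 4691 genes, against 2533 and 5310 per cell).

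**Figure D3:**
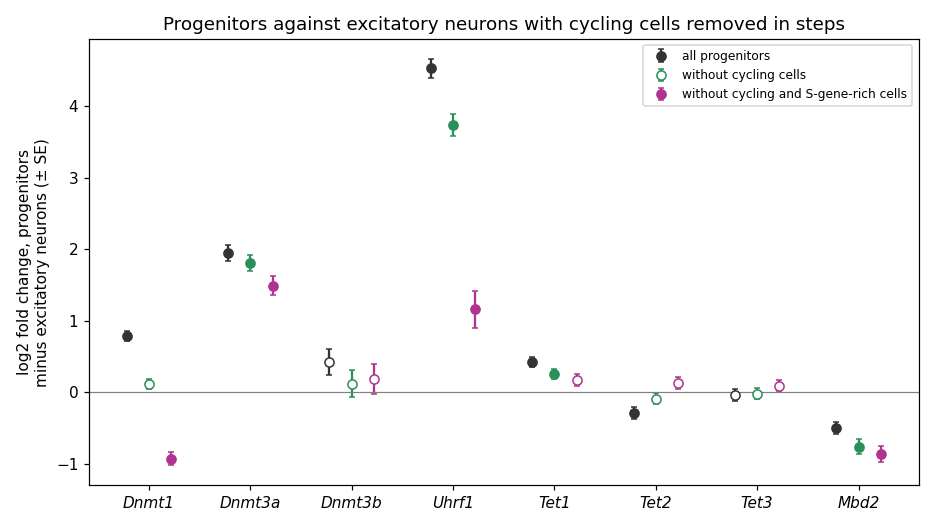
Log2 fold change of each member (y axis, with its SE) between progenitors and excitatory neurons, for all progenitors, without cycling cells, and without cycling and S-gene-rich cells; filled points passed the test. *Dnmt1* goes from 0.79 through 0.11 to -0.93, *Dnmt3a* from 1.95 through 1.81 to 1.49 and *Uhrf1* from 4.53 through 3.74 to 1.16.

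Along the number of S gene UMIs in a cell, *Dnmt1* and *Uhrf1* had their highest levels in the last bin of all progenitors, cycling ones included. *Dnmt1* averaged 25.2 CPM (SD 3.04) in cells with 0 or 1 S gene UMI, 26.5 CPM at 2 to 4, 47.3 CPM at 5 to 9, 77.9 CPM at 10 to 19 and 157 CPM (SD 5.82) at 20 or more. *Uhrf1* went from 7.09 CPM (SD 2.73) to 125 CPM (SD 7.1) over the same bins. *Tet2* went the other way in CPM, from 78.6 CPM (SD 5.16) to 44.2 CPM (SD 2.96), but not per cell. Its UMIs were 241 in 440 cells and 303 in 552 cells in the first bin of embryo 4 and embryo 5. In the last bin they were 317 in 515 cells and 360 in 619 cells. Cells in higher bins held more UMIs in all, with medians of 7805.5 and 6762 in the first bin and 14114 and 11858 in the last. These bins were not tested.

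**Figure D4:**
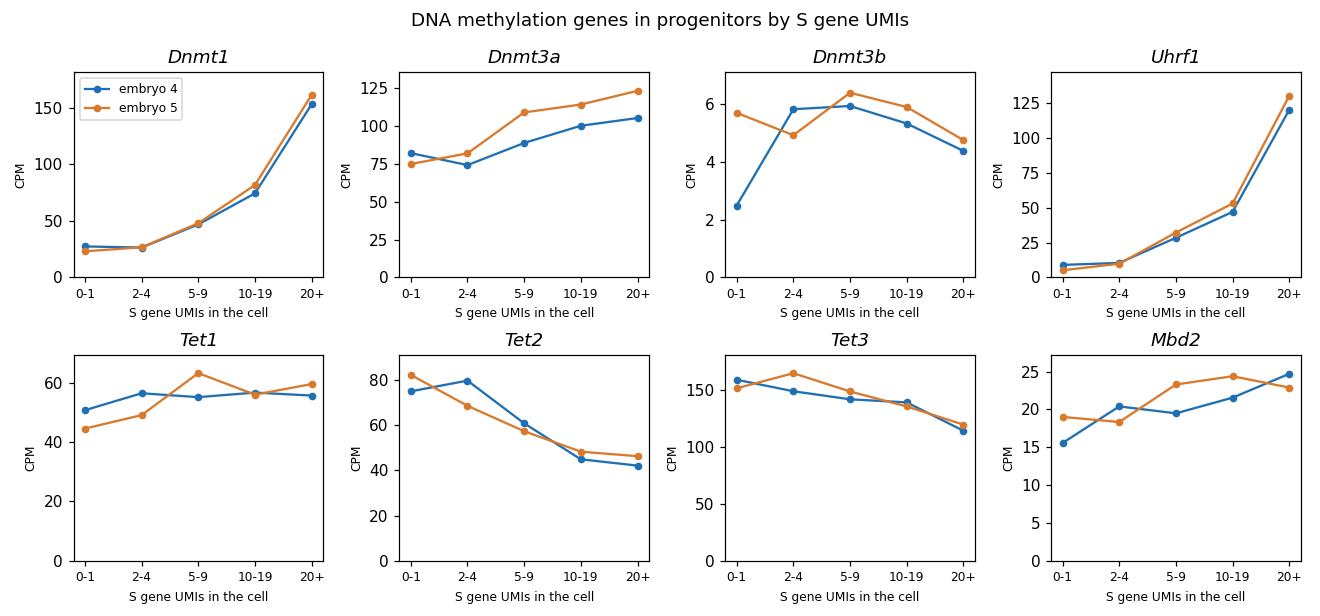
CPM of each member (y axis, from 0) in all progenitors grouped by the S gene UMIs of the cell (x axis), 1 line per embryo. *Dnmt1* and *Uhrf1* climb in the last 3 bins of both embryos, and *Tet1* lies between 44.5 and 63.2 CPM. *Tet2* and *Tet3* end lower than they start in CPM, though not in UMIs per cell.

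*Dnmt3a*, the main enzyme for new methylation in the nervous system, differed by kind of cell, and no cycling difference was called. It was at 91.1 and 104 CPM in progenitors, 20.6 and 24 CPM in excitatory neurons and 65.2 and 70.3 CPM in interneurons. The groups, of 2 values each, did not overlap, which was likewise not counted over all genes. Progenitors were 3.87-fold above excitatory neurons (1.95, SE 0.11, adjusted p = 5.3e-07), and interneurons were 2.8-fold above them (1.48, SE 0.11, adjusted p = 1.6e-05). Progenitors exceeded interneurons by 1.38-fold (0.47, SE 0.11, adjusted p = 0.0055).

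Within progenitors *Dnmt3a* was higher in the RGC-like cells. The other RGC-like cells held 121 and 147 CPM and the other IPC-like cells 44.7 and 46.5 CPM, 2.72-fold less (-1.44, SE 0.11, adjusted p = 2.7e-06). Measured with IPC-like cells alone, progenitors lay below interneurons (-0.69, adjusted p = 0.00036). Cycling cells were at 120 and 126 CPM in the RGC-like and 38.9 and 34.2 CPM in the IPC-like class, and the cycling difference was not called (-0.18, SE 0.09, adjusted p = 0.14). The S gene split gave 98.2 and 130 against 68.8 and 75.6 CPM (0.64, SE 0.13, adjusted p = 0.0044), but within RGC-like cells the values were 122 and 151 against 118 and 138 CPM and within IPC-like cells 45.8 and 51.8 against 44.3 and 45.3 CPM, so each kind of cell showed a smaller gap than the pooled split.

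Among neurons, Cajal-Retzius-like cells, early-born neurons of the marginal zone, had the most *Dnmt3a*, at 160 and 168 CPM in 65 and 66 cells. The 95% Poisson intervals of these values, 136 to 187 and 142 to 198 CPM, overlapped those of the other RGC-like cells only in embryo 5. LGE-like neurons, at 94.1 and 98.3 CPM, came next, followed by CGE (71.6 and 82.8 CPM) and MGE interneurons (62.7 and 63.9 CPM). Upper-layer neurons had 28.8 and 31.4 CPM, and immature and deep-layer excitatory neurons lay between 12 and 17.1 CPM without a called difference between them (adjusted p = 0.72).

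*Dnmt3b*, the other writer of new methylation, was rare. It was at 4.93 and 5.38 CPM in progenitors, 3.78 and 3.02 CPM in excitatory neurons and 1.55 and 2.13 CPM in interneurons, the latter from 10 and 14 UMIs. Progenitors were 2.69-fold above interneurons (1.43, SE 0.28, adjusted p = 0.0019), while the difference from excitatory neurons was not called (0.42, SE 0.18, adjusted p = 0.065), but was with the embryo as a block (adjusted p = 0.044). Interneurons were 2-fold below excitatory neurons (-1.0, SE 0.28, adjusted p = 0.022), and deep-layer were 2.27-fold below immature excitatory neurons (-1.18, SE 0.32, adjusted p = 0.0065), at 2.42 and 1.24 against 5.27 and 3.73 CPM.

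Of the 3 TET enzymes, *Tet2* varied most between classes. It was at 59.1 and 58.5 CPM in progenitors, 68 and 59.3 CPM in excitatory neurons and 135 and 121 CPM in interneurons. Interneurons lay above both other classes, which were close to each other. Progenitors were 2.26-fold below interneurons (-1.18, SE 0.09, adjusted p = 4.5e-06) and 1.22-fold below excitatory neurons (-0.29, SE 0.08, adjusted p = 0.012), the latter turning to 0.29 with IPC-like cells alone. Interneurons were 1.85-fold above excitatory neurons (0.89, SE 0.08, adjusted p = 6.2e-05), and MGE cells, at 143 and 135 CPM, were 1.42-fold above CGE cells at 114 and 94 CPM (adjusted p = 0.018). The calls between progenitors and excitatory neurons and between CGE and MGE cells were lost in some alternatives (-0.22 with cells thinned, and -0.10 at a resolution of 2), and interneurons per cell were 0.25 above excitatory neurons, which was not called.

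*Tet2* was also opposite to *Dnmt3a* in the 2 kinds of progenitor. The other IPC-like cells held 87.8 and 91.8 CPM against 49.7 and 45.3 CPM in RGC-like cells, 2.03-fold more (1.02, SE 0.10, adjusted p = 1e-05). Immature excitatory neurons were at 96 and 92.2 CPM and deep-layer neurons were at 45.7 and 33.8 CPM, 2.2-fold less (-1.14, SE 0.12, adjusted p = 2e-06). Cajal-Retzius-like cells, the highest neurons for *Dnmt3a*, had the least *Tet2* of the neurons, at 25.3 and 25.5 CPM. The difference with cycling was small (-0.25, SE 0.07, adjusted p = 0.021), was lost with cells thinned (-0.07), with doublets kept (-0.18) and with DESeq2 (-0.24), and turned to 0.29 per cell. In the S gene split *Tet2* was 1.54-fold lower in S-gene-rich cells (-0.62, SE 0.09, adjusted p = 0.00067): RGC-like cells had 40.8 and 36.7 against 63.2 and 60.5 CPM, whereas IPC-like cells had 83.8 and 105 against 89.3 and 88.8 CPM and overlapped. The RGC-like gap was smaller per cell. Its UMIs were 178 in 413 and 158 in 469 S-gene-rich cells, against 184 in 404 and 149 in 376 S-gene-poor cells.

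*Tet3*, another TET enzyme, had its highest CPM of the 3 main classes in interneurons. It was at 137 and 141 CPM in progenitors, 121 and 132 CPM in excitatory neurons and 180 and 192 CPM in interneurons. No difference was called between the first 2 classes (adjusted p = 0.64, log2 SE 0.08). Interneurons were 1.39-fold above progenitors (adjusted p = 0.00085) and 1.35-fold above excitatory neurons (adjusted p = 0.003), but both signs turned when sums were scaled by cells. The other IPC-like cells, at 153 and 172 CPM, were 1.4-fold above the other RGC-like cells at 124 and 127 CPM (0.48, SE 0.08, adjusted p = 0.00072).

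*Tet1* was highest in progenitors among the 3 main classes. It was at 55.3 and 55.1 CPM in progenitors, 36.7 CPM in the excitatory neurons of both embryos and 49.5 and 44.9 CPM in interneurons. Progenitors were 1.33-fold above excitatory neurons (0.42, SE 0.07, adjusted p = 0.00058), and their difference from interneurons was not called (0.17, SE 0.08, adjusted p = 0.077), though it was in 7 alternatives, between 0.23 and 0.92. The small excess of interneurons over excitatory neurons (0.24, adjusted p = 0.033) was lost in 6 alternatives, down to 0.12 at a resolution of 2. Among excitatory neurons, deep-layer cells at 26.3 and 29.3 CPM were 1.55-fold below immature cells at 44.6 and 47.9 CPM (-0.63, SE 0.11, adjusted p = 0.00019).

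Between deep-layer and immature excitatory neurons 5 members were called, 1 higher in deep-layer cells (*Dnmt1*, 41.3 and 40.8 against 31.5 and 31.6 CPM, adjusted p = 0.00032) and 4 lower (all 3 *Tet* genes and *Dnmt3b*), where 51.7% of 15301 genes were called (26.4% higher and 25.3% lower, or 4034 and 3877 genes, against 5046 and 1777 per cell). The *Tet3* difference, 102 and 114 against 134 and 151 CPM (-0.30, adjusted p = 0.019), fell to -0.03 per cell, and that of *Tet1* was -0.36 and not called.

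*Mbd2* (ENSMUSG00000024513, chromosome 18), the reader, was the one member whose level was highest in excitatory neurons among the 3 main classes. It was at 21.1 and 21.7 CPM in progenitors, 24.8 and 28.7 CPM in excitatory neurons and 20.9 and 21.6 CPM in interneurons. Progenitors were 1.41-fold below excitatory neurons (-0.50, SE 0.09, adjusted p = 0.0014) and not called against interneurons (adjusted p = 0.74). Without cycling cells the gap to excitatory neurons was 1.69-fold (-0.76, SE 0.10, adjusted p = 8.2e-05). The other IPC-like cells were the low end at 14.6 and 12.2 CPM, 1.57-fold below the other RGC-like cells at 22.5 and 23 CPM (-0.65, SE 0.13, adjusted p = 0.002).

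Among the other progenitors, 7 of the 8 members differed between IPC-like and RGC-like cells, where 48.1% of genes were called (23.2% higher and 24.9% lower). *Uhrf1* (5.06-fold), *Dnmt3a*, *Dnmt1* (2.14-fold), *Mbd2* and *Tet1* (1.3-fold, and not called with cells thinned, -0.34) were lower in IPC-like cells, *Tet2* and *Tet3* were higher, and *Dnmt3b* was not called (adjusted p = 0.83). The members' median was -0.51, against 0.00 over all genes. All 15 S phase genes were lower in these IPC-like cells as well, with a median of -1.54, and their part in the *Dnmt1* and *Uhrf1* differences was not tested in the fit. In S-gene-poor cells alone *Dnmt1* stood at 22.1 and 21.4 CPM in IPC-like against 27.8 and 30 CPM in RGC-like cells.

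Among the interneurons only *Uhrf1* and *Tet2* were called between CGE and MGE cells, where 14.9% of genes were called (7.52% higher and 7.37% lower, or 1151 and 1128 genes, against 696 and 1743 per cell). *Uhrf1* was at 15.7 and 17.1 CPM in CGE cells, from 28 and 38 UMIs, and at 1.93 and 3.68 CPM in MGE cells, 5.61-fold apart (2.49, SE 0.35, adjusted p = 0.00022). With the clusters drawn at a resolution of 2, with at least 2000 genes per cell, or at most 5% mitochondrial counts, the *Uhrf1* call was lost (1.79, 1.13 and 1.70). Cells past the cycling threshold made up 2.39% and 1.49% of CGE cells, and of the S phase genes 11 of 15 were higher in CGE cells. Their part in the *Uhrf1* difference was not tested.

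Of the 12 genes of the NuRD complex, through which MBD2 acts, 5 were higher and 4 lower in progenitors than in excitatory neurons, with a median of 0.10. That is 75% of the list, next to 66.8% of all genes (33.5% higher and 33.3% lower). *Hdac1*, a histone deacetylase, was at 108 and 117 against 38.6 and 38.5 CPM (2.58-fold, adjusted p = 3.7e-07) and the histone-binding subunit *Rbbp7* at 108 and 115 against 42.1 and 40.6 CPM (2.38-fold, adjusted p = 4.8e-07). The remodelling ATPases *Chd5* (3.66 and 3.49 against 20.7 and 21.8 CPM, 6.7-fold, adjusted p = 3.7e-08) and *Chd3* (178 and 170 against 488 and 513 CPM, 3.25-fold, adjusted p = 1.5e-07) were lower in progenitors. Against interneurons 9 were higher and 2 lower, where 32.9% and 30.3% of all genes were, *Chd5* being lower by 19.6-fold and *Chd3* lower by 2.36-fold.

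Of the 30 other genes of DNA methylation and its readers, 29 were tested, and *Dnmt3l* was left out with at most 1 UMI in all progenitors of an embryo. In progenitors against excitatory neurons 13 were higher and 10 lower, 79.3% of those tested next to 66.8% of all genes (33.5% higher and 33.3% lower), with a median of -0.03. *Hells* and *Cdca7*, whose products form a remodeller needed for maintenance methylation, stood at 133 and 158 against 9.59 and 8.48 CPM (14.3-fold, adjusted p = 5.1e-08) and at 95.4 and 106 against 4.47 and 4.07 CPM (20.8-fold, adjusted p = 1.1e-08). Like *Uhrf1*, both were also higher in cycling than in other progenitors, *Hells* by 2.33-fold (adjusted p = 2.3e-06) and *Cdca7* by 1.41-fold (adjusted p = 0.00033). *Zfp57*, which keeps methylation at imprinted genes, was 4.04-fold lower in progenitors than in excitatory neurons (18.8 and 17.5 against 66.2 and 63.5 CPM, adjusted p = 5.4e-08).

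*Gadd45g*, of a family linked to demethylation and growth arrest, went against the cycle. It was 8.66-fold higher in progenitors than in excitatory neurons (202 and 173 against 21.7 and 16.7 CPM, adjusted p = 1.1e-07) but 3.39-fold lower in cycling progenitors (adjusted p = 7.6e-07), and 3.21-fold higher in the other IPC-like than RGC-like cells (428 and 440 against 174 and 116 CPM, adjusted p = 5.2e-06). In that last comparison 14 of the list were higher and 6 lower (69%, next to 48.1% of all genes), with *Zbtb38*, a reader of methylated DNA, 8.15-fold higher (135 in both embryos against 19.7 and 15.9 CPM, adjusted p = 1e-08). In cycling against other progenitors 10 of the list were higher and 6 lower (55.2%, next to 36.9% of all genes), and in S-gene-poor progenitors against excitatory neurons 11 were higher and 5 lower (55.2%, below the 58.9% of all genes), with *Hells* at 28.1 and 29.2 against 9.59 and 8.48 CPM (adjusted p = 1e-05).

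The genes whose levels ran most like a member's were found by Pearson's r of log2(CPM + 1) over 28 sums of 14 classes. This is a description, since the sums share 2 libraries. *Uhrf1* was nearest to *Zfp367* (0.982), *Clspn* (0.981) and *Lig1* (0.981), and *Dnmt1* to *Nucks1* (0.957), *Cep128* (0.943) and *Mastl* (0.939). Of the remaining members, 5 had nearest genes at 0.91 (*Dnmt3a*, *Utrn*), 0.898 (*Tet2*, *Abi1*), 0.879 (*Mbd2*, *Ifnar2*), 0.817 (*Dnmt3b*, *Fzd2*) and 0.774 (*Tet1*, *Thada*).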

How the data were processed

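Single-cell 3' RNA libraries of 2 embryos were analysed. The authors deposited unnormalized UMI counts per gene and barcode (Cell Ranger 7.1.0 in the matrix header, 7.0.0 in the submitters' processing notes, mm10), of 124318613 and 117679925 UMIs over 12825 and 12289 barcodes. Barcodes under 1000 genes or over 10% mitochondrial counts were dropped, and 947 and 1052 likely doublets (the highest doublet scores, 0.8% per 1000 cells) were removed. Cells were clustered with scanpy 1.11.5 and leidenalg 0.10.2 (2000 variable genes, 30 components, 20 neighbours, resolution 1), without the members and the listed genes. Clusters were named from marker lists by the mean log2 ratio to the 25th percentile over clusters, with limits (0.5, and 0.4 above the next class) set after the clusters were seen. Of 27 clusters, 1 (263 cells) stayed unnamed.

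The sum over the cells of a class in an embryo was the unit tested, with edgeR 4.0.16 (R 4.3.3; quasi-likelihood, TMM, filterByExpr, Benjamini-Hochberg, 0.05), and values after a log2 fold change are its SE. Fold changes are TMM-scaled, so they can differ from CPM ratios. The split tests of cycling average RGC-like and IPC-like contrasts. DESeq2 1.42.0 was an alternative. All sums of an embryo come from 1 animal, and their deviations correlated at 0.0707 to 0.258 (pairing by animal), so a fit with the embryo as a block was an alternative too. Named genes are the members and, of the other lists, up to 6 genes of lowest adjusted p per comparison. The members and lists were chosen with earlier results of these data known. The gene nearest to *Tet3* is not reported here. Poisson intervals cover counting error only. Nothing states separate litters, so p-values measure the spread between these 2 embryos.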

Additional observations from a re-analysis of the deposited data

Results flagged for a closer look

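Differences between kinds of progenitor led to 2 results being listed here, because the test of the difference itself passed. The log2 cycling difference of *Dnmt1* was 1.5 larger in IPC-like than in RGC-like cells (SE 0.18, adjusted p = 0.0007, edgeR quasi-likelihood; 1.45 and 1.63 in embryo 4 and embryo 5). That of *Uhrf1* was 2.24 larger (SE 0.20, adjusted p = 0.00015; 2.0 and 2.48). Both embryos showed the same direction, and *Mki67* and *Top2a* differed in it too, with a median of 1.73.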

How the results depend on the processing

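Over 63 member results, 772 of 859 values under alternatives kept direction and side of the threshold, 48 lost the call, 25 gained it and 14 reversed. These results are all called member differences and a few chosen uncalled ones, and only the latter could gain a call. The remaining uncalled member results were left out of this count, so it does not show how stable they were. With IPC-like cells alone as progenitors, *Tet2* reversed against excitatory neurons (0.29), and *Dnmt1* (-0.01), *Dnmt3a* (-0.69) and *Tet1* (-0.17) against interneurons. With sums scaled by cells, these reversed: *Tet3* in progenitors against interneurons (0.27), *Dnmt1* (-0.34), *Tet1* (-0.39) and *Tet3* (-0.20) in interneurons against excitatory neurons, *Tet2* (0.29), *Chd3* (0.10) and *Mta3* (0.21) with cycling, *Dnmt1* (0.35), *Tet3* (0.08) and *Mbd2* (0.23) in other progenitors against interneurons, and *Tet3* (0.08) in the S gene split. *Dnmt1* in other progenitors against excitatory neurons was -0.17 at a cycling threshold of 1 UMI. The causes were not tested, other than that dividing by cells adds the difference in RNA per cell.

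Scaling by cells also moved the split of calls into higher and lower by over 10 percentage points in 9 of 12 comparisons, as given beside each, with the share of higher calls going from 52% to 81.6% for progenitors against interneurons, from 47.9% to 96.6% for cycling and from 52.4% to 92.3% for the S gene split. Total counts of called genes moved by over 1.5 times for interneurons against excitatory neurons (6439, with 2848 higher and 3591 lower; 11180 per cell, with 1077 higher and 10103 lower), for cycling (5333; 2634 with cells thinned), for the difference in cycling between kinds of progenitor (1097; 400 per cell, 1727 with no filter on low counts, 2045 with the replicate block, 559 thinned, 364 at a cycling threshold of 1 UMI) and for CGE against MGE cells (2279; 1036 with at least 2000 genes, 1266 with at most 5% mitochondrial counts, 1371 thinned).

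Among the 63 member results counted above, the replicate block, pairing sums by embryo, gave 2 calls (*Dnmt3b* in progenitors against excitatory neurons, 0.43, and *Dnmt1* in other progenitors against interneurons, -0.20) and changed no other of them. Uncalled member results outside that count were not compared. Leaving out an embryo left 1 sample a group, so values without a test remained, and counts could not be recomputed. CGE against MGE was not run at a resolution of 0.5, where no CGE class was found. The unclassed GABAergic cluster among the interneurons, and neurons without cycling or S-gene-rich cells, were alternatives chosen after seeing the data.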
